A study of Mus musculus with 4 samples.

Results

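Amino acid transporters are membrane proteins of the solute carrier (SLC) superfamily, and the genes described here are those of 7 of its families: Slc1, Slc3, Slc6, Slc7, Slc36, Slc38 and Slc43. The rule that picks the members reads only the gene symbol. The rule found 61 genes among the 24453 in the files. RNA came from epithelial cells of the mouse tongue at embryonic day 16, sorted by the surface protein EpCAM from the front of the tongue. There were 2 control libraries and 2 libraries labelled Ring1a/b 2KO. The labelled genotype of the latter is Ring1a-/- Ring1b fl/fl K14-Cre+: Ring1a is deleted in the germline and Ring1b is removed only where a Cre recombinase driven by the keratin 14 promoter is active. The controls are labelled only as such, so which of these alleles they carry is not given in the sources used here. No label states that the replicates are different embryos, and the p-values therefore measure only how these libraries vary, which may be technical.

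Ring1a and Ring1b are catalytic subunits of Polycomb repressive complex 1, which holds many developmental genes silent and is known to be recruited to CpG-rich promoters. Cells take up amino acids through carriers that differ in their driving force and substrates. Slc1, Slc6 and Slc38 carriers are mostly coupled to sodium, Slc36 carriers to protons, and many Slc7 proteins are exchangers that reach the membrane only when bound to a heavy chain of the Slc3 family. The same superfamily clears transmitters from synapses, so the members were divided by known substrate. There were 37 carriers of general amino acid nutrition and 14 carriers of neurotransmitters (glutamate, GABA, glycine and monoamines). The other 10 carry taurine, creatine or nucleobases, are neuronal proline or neutral amino acid carriers, or have no settled substrate.

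The libraries held between 16256569 and 20624055 counts, of which the members took 0.235% to 0.294%. Epcam, the sorting marker, stood between 189 and 245 CPM (counts scaled to a common library size) and Trp63, a factor of basal keratinocytes, between 837 and 1029 CPM. The targeted genes had no lower counts in 2KO: Ring1 was at 9.02 and 8.57 CPM in control and 16.8 and 15.0 CPM in 2KO, and Rnf2 (Ring1b) at 34.0 and 51.3 CPM and at 62.9 and 62.4 CPM. A count over the whole gene does not check a deletion of some exons, so every direction below is that of the libraries labelled 2KO. Control replicate 2 stood apart in skeletal muscle RNA: 10 muscle markers, all with counts in every library, summed to 428 CPM against 67.1 to 83.9 CPM in the other 3 libraries. Most of that sum was Ttn (222 CPM), Myh3 (66.8 CPM) and Actc1 (63.3 CPM), while Ckm, at 0.704 CPM, lay within the range of the other libraries. The 10 epithelial markers summed to 17953 and 15234 CPM in control and 12394 and 13026 CPM in 2KO, and 3 of them (Krt5, Krt14 and Perp) fell. The ribosomal RNA precursor Rn45s took 15.3% to 16.7% of control counts and 20.2% to 22.9% of 2KO counts.

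Of the 61 members, 39 passed the filter on low counts and were tested, and 3 (Slc6a18, Slc7a12 and Slc7a13) had no count in any library. In the 2KO-labelled libraries 7 rose and 3 fell at an adjusted p under 0.05, and 29 did not pass. Over all 15336 genes tested, 11.9% were called, 7.00% higher and 4.92% lower. Among the tested members the share called was 25.6%; no test of that excess was made. The members that rose were Slc7a10, Slc38a7, Slc36a1, Slc1a5 and Slc7a2 among nutrient carriers, Slc6a9 among neurotransmitter carriers, and Slc6a17. Those that fell were Slc1a4 and Slc6a14 among nutrient carriers and Slc6a2 among neurotransmitter carriers. Log2 fold changes had a median of 0.37 among the 39 tested members and of 0.0065 among all genes tested. In 25 of the 39 the control and 2KO libraries did not overlap (18 higher and 7 lower), beside 57.7% of all genes tested (29.0% higher and 28.7% lower).

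**Figure D1:**
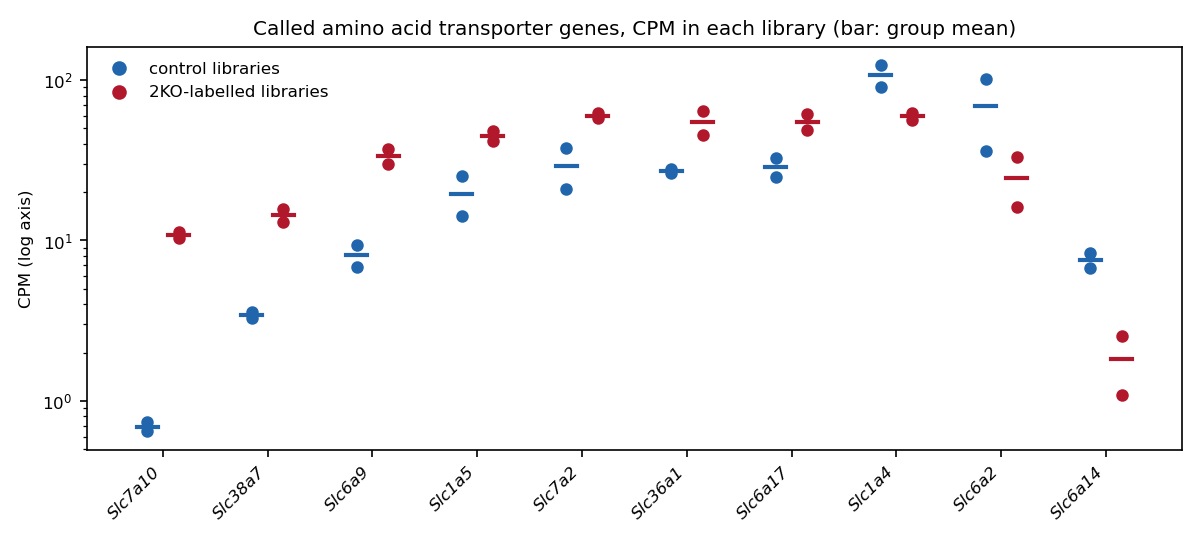
CPM (log axis) of the 10 called members in each library, ordered by log2 fold change, with control libraries in blue, 2KO-labelled libraries in red and bars for group means. The groups do not overlap for any of the 10; Slc7a10 lies at 0.735 and 0.645 CPM in control and above 10 CPM in both 2KO libraries, and the wide gap within a group is that of the Slc6a2 controls.

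The starts of 5 called genes are shown because Polycomb complexes are known to favour CpG-rich promoters. RefSeq promoter windows (build GRCm38.p6, the assembly of mm10) were matched for 43 of the 61 members, and the 250 bases before the annotated start were used. Of the 10 called members, Slc1a5, Slc7a2 and Slc6a2 had no entry, and Slc6a9 and Slc6a17 had more than 1. Among called members with 1 entry, 3 rose (Slc7a10, Slc38a7 and Slc36a1) and 2 fell (Slc1a4 and Slc6a14), given 5′ to 3′ on the gene's strand with CG dinucleotides in capitals.
Slc7a10: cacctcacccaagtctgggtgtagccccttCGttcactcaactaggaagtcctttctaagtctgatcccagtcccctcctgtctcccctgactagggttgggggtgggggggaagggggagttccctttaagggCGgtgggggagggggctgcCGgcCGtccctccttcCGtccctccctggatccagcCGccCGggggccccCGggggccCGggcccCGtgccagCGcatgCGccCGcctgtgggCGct
Slc38a7: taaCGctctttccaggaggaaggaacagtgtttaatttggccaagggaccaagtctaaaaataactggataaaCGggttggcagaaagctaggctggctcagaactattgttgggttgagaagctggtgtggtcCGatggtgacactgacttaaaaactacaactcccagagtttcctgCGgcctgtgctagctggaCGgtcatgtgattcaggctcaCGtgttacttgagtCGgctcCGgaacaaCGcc
Slc36a1: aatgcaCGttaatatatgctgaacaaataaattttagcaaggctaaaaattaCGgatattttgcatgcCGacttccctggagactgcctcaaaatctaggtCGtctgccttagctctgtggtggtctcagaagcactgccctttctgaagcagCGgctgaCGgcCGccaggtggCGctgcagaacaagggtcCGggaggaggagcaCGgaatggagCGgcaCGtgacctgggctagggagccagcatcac
Slc1a4: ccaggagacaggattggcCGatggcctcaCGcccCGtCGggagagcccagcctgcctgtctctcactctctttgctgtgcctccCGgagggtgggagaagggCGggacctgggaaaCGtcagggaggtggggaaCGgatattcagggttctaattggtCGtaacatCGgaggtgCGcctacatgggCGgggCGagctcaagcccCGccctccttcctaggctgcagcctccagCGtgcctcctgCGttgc
Slc6a14: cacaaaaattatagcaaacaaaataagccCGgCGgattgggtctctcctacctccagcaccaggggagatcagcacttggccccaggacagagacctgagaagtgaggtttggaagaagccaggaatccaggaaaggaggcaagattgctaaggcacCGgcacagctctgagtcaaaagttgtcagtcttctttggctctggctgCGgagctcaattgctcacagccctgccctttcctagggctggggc
They lie at chr7:35186135-35186384 (+ strand), chr8:95853492-95853741 (- strand), chr11:55204090-55204339 (+ strand), chr11:20332714-20332963 (- strand) and chrX:21714650-21714899 (+ strand), in the order printed. Slc7a10 holds 14 CG dinucleotides, Slc38a7 9 and Slc36a1 12. Of the genes that fell, Slc1a4 holds 16 and Slc6a14 4. The median was 6 over all 32851 windows and 8.5 over the 64 windows of members. By class it was 9.5 for nutrient carriers (38 windows) and 7 for neurotransmitter carriers (21 windows), some of which overlap within a gene. A high count was thus found in members of either direction and in members that did not pass, such as Slc38a2 with 30. The core of the amino acid response element, TGATGNAA, was searched on both strands of the same windows. It was present in 3.45% of all windows and in 4 of the 64 windows of members, which belong to Slc7a11 (2 matches), Slc7a7 (2 windows that overlap) and Slc6a21. None of the 10 windows of the 7 called members with an entry held it.

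Nutrient carriers made up 77.6% to 84.3% of the members' summed level in the 4 libraries. On the deposited FPKM scale, which divides by gene length and so allows levels of different genes to be compared, their summed level was 511 and 392 FPKM in the control libraries and 565 and 592 FPKM in the 2KO-labelled libraries. Neurotransmitter carriers summed to 14.5 and 30.3 FPKM in control and 23.0 and 23.2 FPKM in 2KO, between 2.34% and 6.01% of the total of all members. The other carriers, chiefly Slc6a6 and Slc6a8, summed to 94.8 and 82.6 FPKM in control and 89.1 and 87.0 FPKM in 2KO, 12.4% to 16.4% of the total. For nutrient carriers both 2KO libraries lay above both controls. For neurotransmitter carriers the controls lay on either side of both 2KO libraries, which rested on Slc6a2, at 5.81 and 16.4 FPKM in control and 2.77 and 4.91 FPKM in 2KO. Without Slc6a2, left out after its values were seen, the neurotransmitter sums were 8.72 and 13.9 FPKM in control and 20.3 and 18.3 FPKM in 2KO. There both 2KO libraries lay above both controls, an order that rested on Slc6a9. That gene was at 3.05 and 2.21 FPKM in control and 10.8 and 9.65 FPKM in 2KO. At a mean of at least 1 FPKM were 21 of 37 nutrient carriers, 5 of 14 neurotransmitter carriers and 5 of the 10 others. At 10 FPKM or more were 8 nutrient carriers, 0 neurotransmitter carriers and 2 others. The median mean level was 1.59 FPKM for nutrient carriers and 0.278 FPKM for neurotransmitter carriers, against 1.09 FPKM for all genes in the files.

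**Figure D2:**
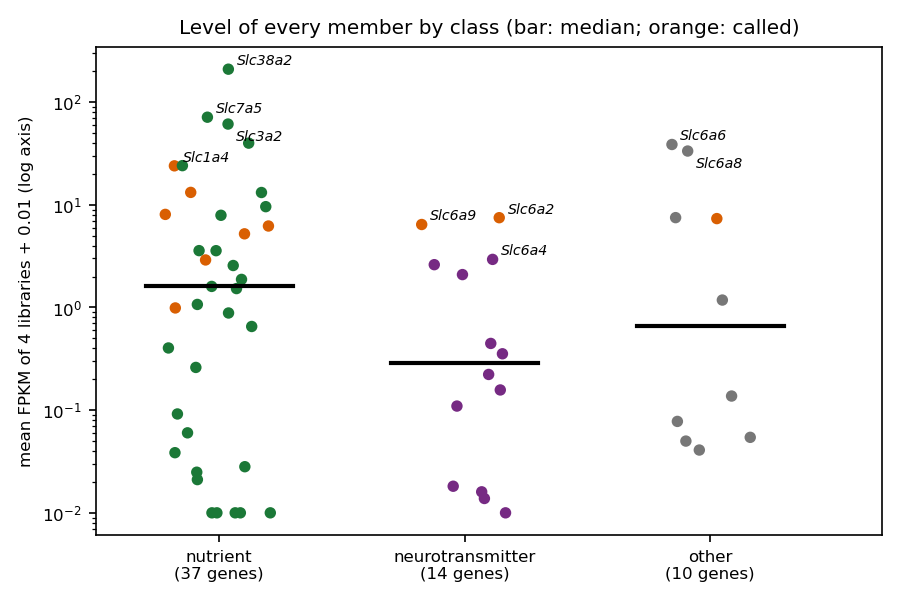
Mean FPKM over the 4 libraries plus 0.01 (log axis) for every member, by class, with a bar at the class median and called members in orange. Slc38a2, Slc7a5 and Slc3a2 top the nutrient carriers, and no neurotransmitter carrier reaches 10 FPKM.

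The member of highest level was Slc38a2, a sodium-coupled carrier of small neutral amino acids that cells raise when amino acids are short. It stood at 229 and 130 FPKM in control and 241 and 237 FPKM in 2KO, rank 181 of all genes, and made up 25.7% to 36.9% of the members' summed FPKM. Next in mean level came Slc7a5 (71.3 FPKM), the light chain of the main exchanger of large neutral amino acids, and its heavy chain Slc3a2 (61.2 FPKM). Slc38a4, Slc6a6 (the taurine carrier) and Slc6a8 (the creatine carrier) followed at 39.9, 38.7 and 33.4 FPKM. The means of these last 3 lie close together beside the spread between libraries, and so do those of Slc7a5 and Slc3a2. None of these 6 abundant members passed the test. Their log2 fold changes were 0.24 for Slc38a2 (standard error 0.204, adjusted p = 0.495), 0.23 for Slc7a5, 0.33 for Slc3a2, 0.49 for Slc38a4, 0.23 for Slc6a6 and -0.31 for Slc6a8. Slc38a2 and Slc3a2 depended on one control library. Without control replicate 1 they were called higher (log2 fold changes 0.69 and 0.56, adjusted p = 0.00142 and 0.0427), and without control replicate 2 the Slc38a2 value was -0.082 (adjusted p = 0.797). Slc38a4 was called higher without 2KO-labelled replicate 1 (0.72, adjusted p = 0.0286) and with no filter on low counts (0.48, adjusted p = 0.0417).

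Of the light chains that bind Slc3a2, only Slc7a10 passed the test. Slc7a10, an exchanger of small neutral amino acids including D-serine, known mainly from neurons and adipocytes, had the greatest log2 fold change of any called member. It stood at 0.735 and 0.645 CPM in control and 10.3 and 11.2 CPM in 2KO, with means of 0.690 ± 0.0635 and 10.8 ± 0.643 CPM (SD, n = 2 per group, as for every mean below), a 15.6-fold difference. Both 2KO libraries lay far above both controls (log2 fold change 3.95 ± 0.541 SE, adjusted p = 0.00111; SE is the standard error). Relative to its heavy chain, Slc7a10 went from 0.800% and 2.18% of the Slc3a2 FPKM in control to 20.1% and 14.7% in 2KO. Slc7a5 kept between 105% and 128% of the Slc3a2 level in the 4 libraries and Slc7a6, a carrier of cationic and neutral amino acids, between 11.6% and 15.1%. The light chains Slc7a7, Slc7a8 and Slc7a11 (the cystine-glutamate exchanger) were at or below 3.91% in every library, and none passed the test. Exons of Slc7a10 (chromosome 7, 35186385 to 35201114, mm10) share 17.9% of their bases with Lrp3 on the other strand, so reads there cannot be assigned without strand. Lrp3 itself was at 15.5 and 6.34 CPM in control and 18.2 and 18.0 CPM in 2KO (log2 fold change 0.72, adjusted p = 0.261).

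Carriers of cationic amino acids and glutamine also included members that rose. Slc7a2, an arginine and lysine carrier (chromosome 8, 40862396 to 40922308), was at 20.9 and 37.6 CPM in the controls and 62.1 and 57.7 CPM in 2KO, with no overlap (log2 fold change 1.04 ± 0.264 SE, adjusted p = 0.0289). Slc7a1, the general carrier of the same substrates, was at 226 and 174 CPM in control and 147 and 167 CPM in 2KO (-0.35, adjusted p = 0.216). On the FPKM scale Slc7a1 lay above Slc7a2 in every library, at 31.6 and 23.4 against 2.40 and 4.01 in control, and at 19.8 and 21.5 against 7.51 and 6.91 in 2KO. Slc1a5, the exchanger through which many cells take up glutamine (chromosome 7, 16781340 to 16798274), was at 25.0 and 14.1 CPM in the controls and 41.7 and 47.9 CPM in 2KO (log2 fold change 1.19 ± 0.280 SE, adjusted p = 0.0203). Its closest relative Slc1a4, which prefers alanine, serine and cysteine (chromosome 11, 20302180 to 20332713), went the other way. Slc1a4 stood at 89.9 and 123 CPM in control and 62.5 and 56.3 CPM in 2KO, 1.80-fold lower by the means (log2 fold change -0.84 ± 0.195 SE, adjusted p = 0.0189). The Slc1a4 call was lost without control replicate 2 (-0.59, adjusted p = 0.0576).

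Members known from lysosomes were among those that rose. Slc38a7, which exports glutamine and asparagine from lysosomes (chromosome 8, 95835920 to 95853539), was at 3.58 and 3.29 CPM in the controls and 15.7 and 13.0 CPM in 2KO, a 4.18-fold difference (log2 fold change 2.06 ± 0.389 SE, adjusted p = 0.00721). Slc36a1, a proton-coupled carrier of small neutral amino acids on lysosomes and at the cell surface (chromosome 11, 55204350 to 55236330), was at 26.3 and 27.7 CPM in the controls and 45.3 and 64.2 CPM in 2KO. The Slc36a1 groups did not overlap, and the 2KO libraries differed from each other more than the controls did (log2 fold change 1.02 ± 0.227 SE, adjusted p = 0.0159). Its call was lost without 2KO-labelled replicate 2 (0.74, adjusted p = 0.155). Slc38a9, a lysosomal arginine sensor of the growth regulator mTORC1, was at 14.0 and 13.1 CPM in control and 16.8 and 18.1 CPM in 2KO (log2 fold change 0.37, adjusted p = 0.431). Slc36a4 was at 5.29 and 4.34 CPM and at 9.02 and 9.85 CPM (0.97, adjusted p = 0.164).

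Of the 8 Slc38 members tested only Slc38a7 passed, and all 8 log2 fold changes were positive, with a median of 0.38. That held under the other scalings and tests, and 7 of 8 were positive without either control library, the exception being Slc38a6 without replicate 1 and Slc38a2 without replicate 2. Slc38a3, a glutamine carrier of liver and brain, lay just outside the threshold. It stood at 5.20 and 4.64 CPM in control and 12.8 and 11.4 CPM in 2KO (log2 fold change 1.29, adjusted p = 0.0523), and passed with DESeq2 (adjusted p = 0.0281) and without control replicate 1 (0.0319). Slc43a1, a carrier of large neutral amino acids, was at 4.90 and 1.29 CPM in control and 10.7 and 11.1 CPM in 2KO (1.81, adjusted p = 0.0675). It too was called in other fits, among them DESeq2 (0.0239), limma-voom (0.0341) and the fit without control replicate 1, where its log2 fold change was 3.10 (adjusted p = 0.000178). Its relative Slc43a2 was at 4.41 and 7.86 CPM in control and 11.4 and 7.52 CPM in 2KO, which overlap. Slc3a1, the heavy chain of kidney and intestine, and Slc38a10 also overlapped between groups and did not pass. The nutrient carriers Slc7a3, Slc7a9, Slc7a15 and Slc38a8 were below the filter, with at most 9 counts in either group.

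Slc6a14, a carrier of neutral and cationic amino acids found on mucosal surfaces (chromosome X, 21714896 to 21742355), was the nutrient carrier with the most negative log2 fold change. It stood at 6.76 and 8.39 CPM in control and 2.55 and 1.09 CPM in 2KO, 4.16-fold lower by the means (log2 fold change -2.06 ± 0.602 SE, adjusted p = 0.0488). Both 2KO libraries lay below both controls. The call was at the threshold: it was lost without control replicate 2 (-1.88, adjusted p = 0.0902), without 2KO-labelled replicate 2 (-1.58, adjusted p = 0.203) and with RLE scaling (adjusted p = 0.0502).

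**Figure D3:**
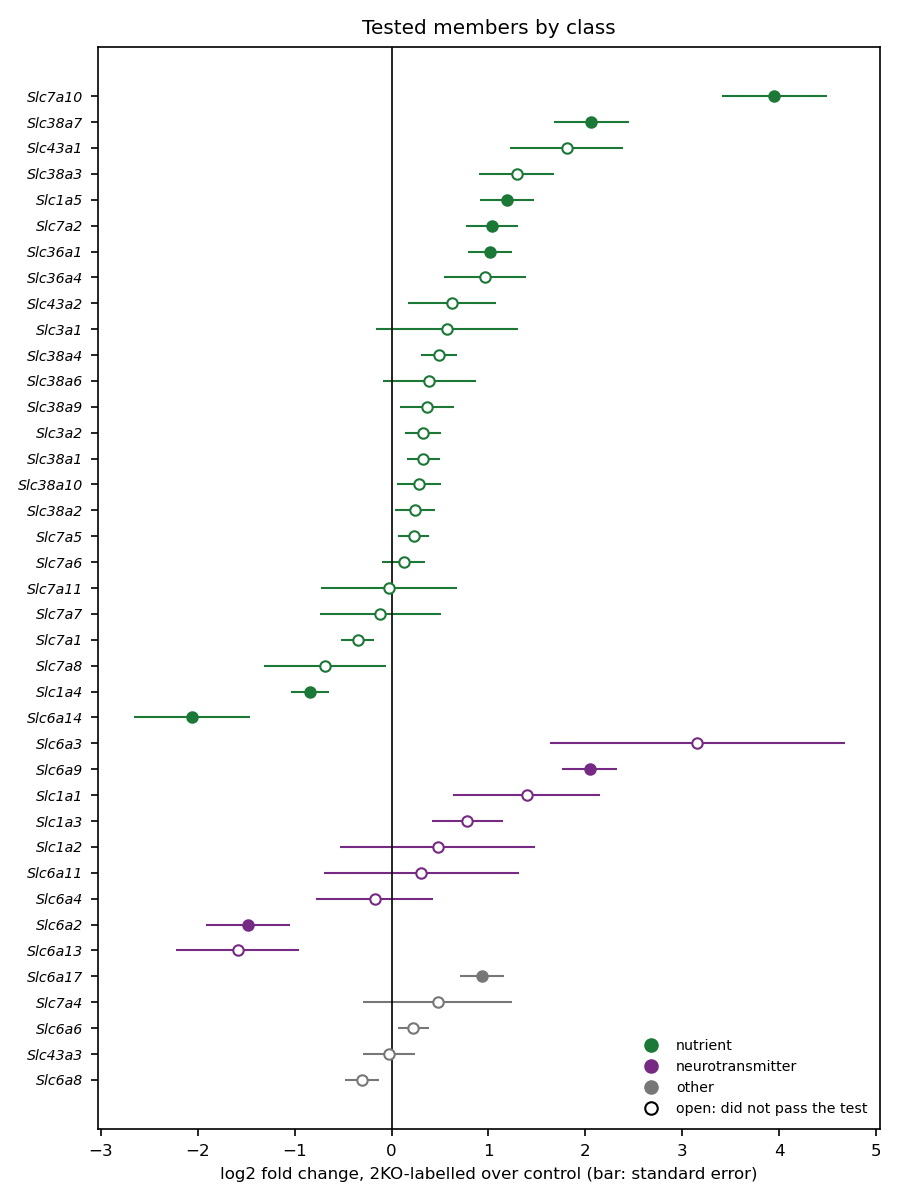
Log2 fold change of 2KO-labelled over control libraries with its standard error for the 39 tested members, coloured by class, filled where the test was passed and open where it was not. Nutrient carriers run from -2.06 (Slc6a14) to 3.95 (Slc7a10), and among neurotransmitter carriers several of low level, such as Slc6a3, have wide error bars.

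Among neurotransmitter carriers, 9 of 14 were tested, 1 rose, 1 fell and 7 did not pass, a called share of 22.2% beside 28.0% of the 25 nutrient carriers tested. The difference between these shares was not tested. The median absolute log2 fold change was 1.39 for the tested neurotransmitter carriers and 0.57 for the tested nutrient carriers, beside 0.45 for all genes tested; the first class is also lower in level. With Slc1a1 and Slc1a3, glutamate carriers found outside the nervous system too, counted as nutrient carriers, the calls were the same, 2 of 7 and 7 of 27. Neither gene was called, so only the numbers tested could change, and the neurotransmitter share was then the larger. The called gene Slc7a10, known from neurons too, was a nutrient carrier in both counts. With so few genes, which share is the larger depends on where Slc7a10, or Slc1a1 and Slc1a3, are placed.

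Slc6a9, the glycine carrier that ends glycine signalling and is also made by non-neural cells (chromosome 4, 117834506 to 117875198), rose. It stood at 9.36 and 6.81 CPM in control and 37.1 and 29.8 CPM in 2KO, means of 8.08 ± 1.81 and 33.5 ± 5.13 CPM (log2 fold change 2.05 ± 0.284 SE, adjusted p = 0.00121). Both 2KO libraries lay well above both controls. Exons of other genes on the opposite strand, B4galt2 and Ccdc24 among them, overlap 30.2% of its exon bases, and B4galt2 rose as well, from 6.18 and 6.51 CPM to 19.8 and 21.1 CPM (log2 fold change 1.69, adjusted p = 0.00583). How far the Slc6a9 counts hold reads of B4galt2 was not tested.

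Slc6a2, the noradrenaline carrier (chromosome 8, 92960079 to 93001667), was the neurotransmitter carrier of highest level in control and was called lower. It stood at 36.2 and 101 CPM in control and 16.2 and 32.9 CPM in 2KO, means of 68.6 ± 45.9 and 24.6 ± 11.9 CPM (log2 fold change -1.48 ± 0.431 SE, adjusted p = 0.0480). The lower control and the higher 2KO library were close together, and the high control was the library with the highest muscle marker sum. Without that library the log2 fold change was -0.55 (adjusted p = 0.267), and DESeq2 (adjusted p = 0.247) and limma-voom (0.0527) did not call it. Slc6a4, the serotonin carrier, was likewise highest in control replicate 2: 3.19 and 12.3 CPM in control, 4.82 and 8.81 CPM in 2KO (-0.18, adjusted p = 0.888). Whether muscle RNA had a part in these values was not tested. In bulk samples fewer cells of a type and less RNA per cell cannot be told apart.

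Summed neuron markers overlapped between the groups. The 12 neuron markers summed to 56.6 and 70.2 CPM in control and 62.8 and 69.9 CPM in 2KO. Most of each sum was Syt1, Map2 and Tubb3, so it says little of the other markers. Of 11 tested, Elavl3 rose and Tubb3 fell. Their log2 fold changes had a median of 0.62, with 8 positive and 3 negative. Nefl was at 0 in control replicate 2 and Gap43 at 0 in control replicate 1. The 8 Schwann cell and glia markers summed to 137.9 and 86.3 CPM in control and 80.6 and 104.5 CPM in 2KO, most of it Erbb3, which epithelia also make, and 0 of 6 tested passed edgeR. Endothelial markers summed to 35.9 and 29.1 CPM in control and 53.9 and 75.0 CPM in 2KO, with 0 of 10 passing edgeR and 3 at an unadjusted p under 0.05. Mesenchyme markers summed to between 320 and 416 CPM. Immune markers summed to 26.9 and 22.4 CPM in control and 55.9 and 49.0 CPM in 2KO, most of it Cd68, which alone of 6 tested passed and rose. The sum thus says little of the other immune markers, as 4 log2 fold changes were positive and 2 negative. Lyz2 was at 1.57 and 1.06 CPM in control and 0 and 0.148 CPM in 2KO (log2 fold change -3.98, edgeR adjusted p = 0.108). The part of neuronal, endothelial and immune RNA in the members that rose was not tested.

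The glutamate carriers gave no call. Slc1a3, a carrier of glia that epithelia also make, was at 6.76 and 10.9 CPM in control and 17.7 and 12.7 CPM in 2KO (log2 fold change 0.78, adjusted p = 0.187), and was called higher without control replicate 2 (1.18, adjusted p = 0.0449). Slc1a1 was at 1.18 and 1.53 CPM in control and 4.65 and 2.47 CPM in 2KO (1.39, adjusted p = 0.265), and 31.9% of its exon bases overlap another gene. Slc1a2, the main carrier of astrocytes, ranged from 0.445 to 5.56 CPM within the 2KO group alone. Of the GABA carriers, Slc6a13 stood at 4.66 and 7.22 CPM in control and 2.67 and 1.29 CPM in 2KO (-1.59, adjusted p = 0.130) and Slc6a11 overlapped between groups. Slc6a3, the dopamine carrier, had 4 and 0 counts in control and 13 and 24 in 2KO (0.196 and 0 CPM against 0.737 and 1.19 CPM, adjusted p = 0.207).

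Several members were at 0 counts in 1 group. A count of 0 in a group allows a level of up to 0.0801 CPM in control and 0.0793 CPM in 2KO (3 counts over the group). Slc38a5 had 0 counts in control and 39 and 0 in 2KO, all from replicate 1. Over the group that level was 12.9-fold above the control limit, resting on that library. Slc6a7, a neuronal proline carrier, had 0 in control and 2 and 26 in 2KO, with nearly all counts in replicate 2. Over the group that level was 9.23-fold above the control limit. Slc38a11 had 0 in control and 3 and 2 in 2KO, 1.65-fold above the control limit. Slc6a12, a betaine and GABA carrier, had 4 and 1 counts in control and 0 in 2KO. Its control level was 1.68-fold above the 2KO limit. Slc1a6, a glutamate carrier of the cerebellum, had 2 counts in control and 15 in 2KO, and their ratio was 7.42 (95% counting interval 1.73 to 66.9). The interval covers counting error only, and the folds above a limit take the level of the counted group as exact. With 5 counts each, Slc38a11 and Slc6a12 may differ less than that or not at all. None of these genes entered the main test. With no filter on low counts Slc38a5 was called higher, on counts from 2KO-labelled replicate 1 alone. Slc1a7, Slc6a5, Slc6a19 and Slc36a2 had at most 3 counts in all, too few for a difference to be detectable at this depth.

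In the remaining class Slc6a17, a carrier of neutral amino acids on synaptic vesicles (chromosome 3, 107467543 to 107518018), rose. It stood at 25.0 and 32.6 CPM in control and 48.7 and 61.2 CPM in 2KO (log2 fold change 0.93 ± 0.224 SE, adjusted p = 0.0226), and the call was lost without 2KO-labelled replicate 2 (0.75, adjusted p = 0.133). It lay at a mean of 7.33 FPKM, near Slc43a3, a nucleobase carrier, at 7.49 FPKM. Slc43a3 was at 16.4 and 21.1 CPM in control and 17.6 and 19.2 CPM in 2KO, inside the control range. Slc7a4 ranged from 1.39 to 6.07 CPM within the 2KO group and did not pass. Slc6a15, Slc6a16, Slc6a21 and Slc7a14 were below the filter. Slc6a16 had 3 counts in control and 18 in 2KO, with a ratio of 5.94 (95% counting interval 1.73 to 31.5), and 34 of the 37 Slc7a14 counts in 2KO were from replicate 1.

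No cluster of neighbouring members held more than 1 called gene. By RefSeq, 14 members form 8 pairs of adjacent protein-coding genes, in 6 clusters. Slc36a1 rose while its neighbours Slc36a2 and Slc36a3 on chromosome 11 stayed below the filter, with 0 and 3 counts in the control and 2KO groups for Slc36a2, and 5 and 9 for Slc36a3. On chromosome 15 Slc38a1, Slc38a2 and Slc38a4 lie in a row, and none passed; Slc38a1 was at 81.4 and 94.8 CPM in control and 105 and 116 CPM in 2KO (0.33, adjusted p = 0.240). The other clusters, among them Slc6a18 with Slc6a19, Slc6a13 with Slc6a12 and Slc6a16 with Slc6a21, held no called gene.

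Genes that use, make or sense amino acids were described beside the carriers. Of 23 cytosolic aminoacyl-tRNA synthetases and scaffold genes, which load amino acids onto tRNA, 6 fell, 0 rose and 17 did not pass, beside 4.92% lower over all genes tested, and the median log2 fold change was -0.33. Gars fell from 64.4 and 76.2 to 33.1 and 42.2 CPM (log2 fold change -0.90, adjusted p = 0.0167). The scaffold gene Aimp1 fell from 38.7 and 49.7 to 16.8 and 24.1 CPM (-1.11, adjusted p = 0.0183), and Nars, Eprs, Hars and Lars fell by 0.64, 0.60, 0.80 and 0.67 on the log2 scale. Only 2 of the 23 were called without 2KO-labelled replicate 1, 4 without 2KO-labelled replicate 2, and 0 on FPKM values.

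Of 29 tested genes of the amino acid response, the programme through which the factor Atf4 raises carriers and synthesis enzymes in shortage, 4 rose, 1 fell and 24 did not pass. That is 13.8% higher and 3.45% lower, beside 7.00% and 4.92% of all genes tested, and the list's median log2 fold change was 0.047. Psat1, a serine synthesis enzyme, fell from 531 and 474 to 240 and 226 CPM (log2 fold change -1.11, adjusted p = 0.000818). Ddit4 and Sesn2, inhibitors of mTORC1, rose by log2 fold changes of 1.30 and 1.34 (adjusted p = 0.0112 and 0.0249), Ppp1r15a by 0.90 (0.0186) and Cbs, a cysteine synthesis enzyme, by 1.50 (0.0267). Atf4 was at 256 and 143 CPM in control and 267 and 256 CPM in 2KO (adjusted p = 0.301), and Asns, a standard target, at 32.3 and 32.7 CPM and at 28.4 and 28.5 CPM (adjusted p = 0.617). With edgeR, 0 of 36 genes of the mTORC1 sensing machinery passed, with 6 at an unadjusted p under 0.05. Of 18 glutamate and glutathione enzymes only Abat, which breaks down GABA, passed, rising from 22.6 and 18.3 to 38.8 and 43.1 CPM (1.00, adjusted p = 0.0185). With edgeR, 0 of 20 tested amino acid carriers of other families passed, with 5 at an unadjusted p under 0.05. Slc16a10, a carrier of aromatic amino acids, was at 41.7 and 49.7 CPM in control and 61.4 and 52.6 CPM in 2KO, and Slc15a2, a peptide carrier, at 41.5 and 16.9 CPM and at 64.2 and 46.4 CPM.

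**Figure D4:**
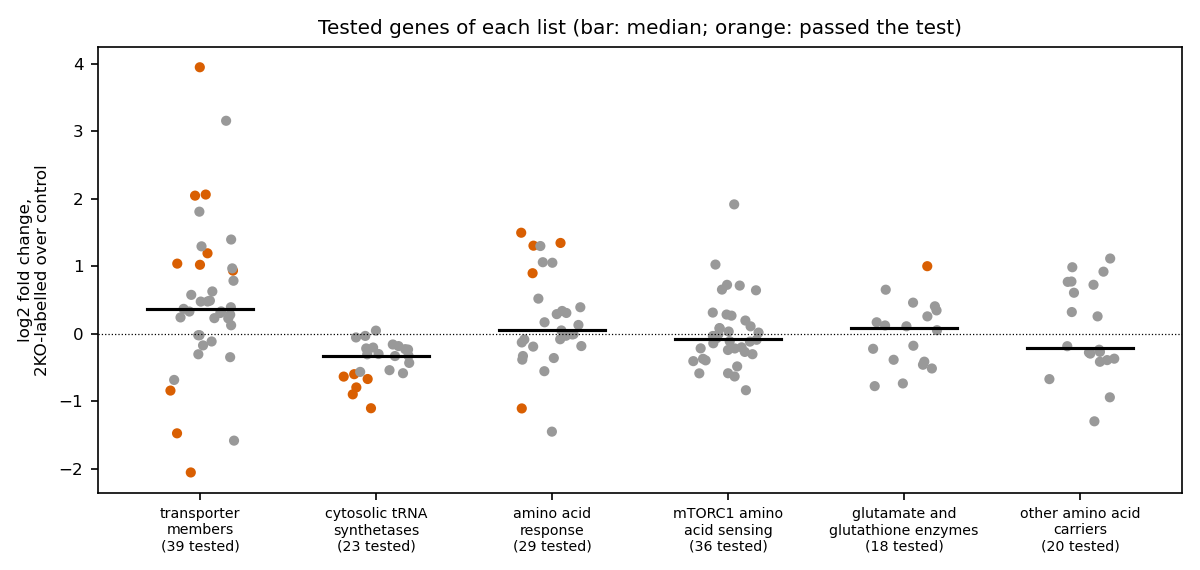
Log2 fold change of 2KO-labelled over control libraries for the tested transporter members and for the tested genes of 5 related lists, 1 point per gene, orange where the test was passed, with a bar at the list's median. The tRNA synthetase genes lie almost wholly below 0 (median -0.33), while the transporter members spread from -2.06 to 3.95.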

How the data were processed

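The submitters' processing notes name build mm10, HTSeq 0.6.1, TopHat2 2.0.13, DESeq2 1.6.3 and Cufflinks 2.2.1. The tool behind each column, the annotation and the use of strand are not stated there. Per the labels' protocols, the RNA was amplified as cDNA, so reads are not independent molecules. The authors deposited a raw read count per gene and library and, in another table, an FPKM value. Reads from overlapping genes may be shared or lost.

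Counts were tested with edgeR 4.0.16 in R 4.3.3 (TMM, filterByExpr, quasi-likelihood test of genotype, two-sided, Benjamini-Hochberg adjustment over all 15336 genes tested, threshold 0.05). Standard errors are the log2 fold change over the root of the F statistic. CPM values use TMM-scaled library sizes, and levels between genes were compared on FPKM only. Replicates were not copies of one library: their chi-square was 28.7 (control) and 22.7 (2KO) per degree of freedom. The test was checked on simulated counts. Alternatives were other scalings, filters and tests (DESeq2 1.42.0, limma 3.58.1), FPKM values, a replicate block and each library left out. Members, classes, lists and tests were chosen with earlier results of these data known, and Slc6a21 was put among the others after its counts were seen. Named are all called members, the 6 of highest FPKM, the 6 nearest the threshold, members at 0 in a group (1 is not reported here), the called genes of each list (or the 2 most abundant) and the most abundant markers; further members were named as examples after their values were seen.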

Additional observations from a re-analysis of the deposited data

How the results depend on the processing

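Of the 10 called members, Slc7a10, Slc38a7 and Slc6a9 were called in 14 of 15 alternatives each. The exception was limma-trend on log2(FPKM + 1) with no filter, where 0 members, 0 nutrient carriers, 0 neurotransmitter carriers and 0 genes in all passed (16 members and 3764 genes at an unadjusted p under 0.05). With a filter at a mean of 1 FPKM, 4 members passed with pseudocounts of 1 and 0.1 (3 nutrient carriers and 1 neurotransmitter carrier, all higher), and 711 and 581 genes in all, of which 71.3% and 70.6% were higher against 58.7% on counts. There Slc1a4, Slc1a5, Slc7a2, Slc36a1, Slc6a2 and Slc6a17 lost their calls, Slc6a14 was under the filter and Slc43a1 was gained; the cause was not tested. With no filter on low counts 11 nutrient carriers and 2796 genes in all were called, with more genes tested. Among neurotransmitter carriers 1 was called with upper-quartile scaling, DESeq2, limma-voom and without Rn45s, Malat1 and Lars2 (a fit chosen after seeing the data), Slc6a2 being the one lost. Leaving out each library in turn gave 8 to 14 called members, 5 to 11 nutrient carriers, 2 to 2 neurotransmitter carriers and 1405 to 2747 genes in all; the lone library of a group is then assumed to vary like the other group. The 11 nutrient carriers and 2747 genes were those without control replicate 1. Without control replicate 2 no member was called lower, and Slc38a2 changed sign (-0.082; range over the left-out libraries -0.082 to 0.690). The replicate number did not pair the libraries: deviations of same-numbered libraries from their group means had a correlation of -0.0123. The replicate block gave 2036 genes and 10 called members, 9 of them shared, with Slc6a14 lost (adjusted p = 0.0508) and Slc43a1 gained. Depth limits what can be said of the 22 members under the filter.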

Other observations

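Genes that make, store or break down the substrates of the called neurotransmitter carriers were looked up after the carriers' values were seen. Of 19 genes of monoamine handling, 12 were tested and 0 passed edgeR, with 2 at an unadjusted p under 0.05. Th and Dbh, enzymes of noradrenaline synthesis, were near the limit of detection: Th at 1.32 and 2.23 CPM in control and 0.113 and 0.445 CPM in 2KO, and Dbh at 0.0980 and 0 CPM in control and 1.13 and 0 CPM in 2KO. The breakdown enzyme Maoa was at 36.0 and 36.5 CPM in control against 28.6 and 25.7 CPM in 2KO.

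Of 16 genes of serine, glycine and one-carbon metabolism, chosen in the same way, 3 fell, 0 rose and 13 did not pass, beside 4.92% lower and 7.00% higher over all genes tested. Their median log2 fold change was -0.031, with 7 positive and 9 negative values. Those that fell were Psat1, given above, Dld, a subunit shared by the glycine cleavage system and other mitochondrial complexes, from 136 and 136 to 90.8 and 76.9 CPM (log2 fold change -0.70, adjusted p = 0.0209), and Mthfd1, a folate enzyme, from 53.8 and 57.9 to 32.6 and 36.9 CPM (-0.69). Gldc, the decarboxylase of the glycine cleavage system, was at 15.0 and 13.8 CPM in control and 17.8 and 19.6 CPM in 2KO.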
